A study of Mus musculus with 6 samples.

Results

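Transcription factors that define or maintain the endothelial lineage were examined in lung cells selected by an endothelial surface protein. The cells came from mouse pups with or without targeted deletion of Smad4 in endothelium. Examined were the ETS factors Erg, Fli1 and Ets1 and the SOXF factors Sox7, Sox17 and Sox18. The others were the GATA factors Gata2 and Gata6, the bHLH factor Tal1 and the forkhead factor Foxf1. The members were taken from the deposited count table by gene symbol, and 10 of 10 symbols were found among its 24951 genes. All 10 passed the filter on low counts, which kept 14934 genes. The series holds 3 control and 3 mutant libraries from pups at postnatal day 5. Controls, labelled wildtype, were homozygous for a floxed Smad4 allele (Smad4 f/f) and carried no Cre. Mutants, labelled Smad4 iECKO, carried the same floxed alleles with Cdh5-CreERT2, a Cre recombinase that is active after tamoxifen and is driven by the promoter of the endothelial cadherin gene Cdh5. The labels name neither the tamoxifen dose nor its day, and no group combines Cre with intact Smad4. The labels in 1 place use the names HHTf/f and HHTiECKO for the mice without explaining them. Lungs were dissociated and cells were selected on beads that carry antibody to the endothelial surface protein CD31.

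Endothelial identity is set by combinations of transcription factors, none of which is made by endothelial cells alone. ERG, FLI1 and ETS1 bind the ETS motif found in most endothelial enhancers, SOXF factors act in arterial and lymphatic specification, and GATA2 and TAL1 join a complex shared with blood cells. FOXF1 is a lung mesenchymal and capillary endothelial factor whose loss in people causes alveolar capillary dysplasia. SMAD4 is the partner that BMP- and TGF-beta-activated SMADs share when they enter the nucleus.

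Smad4 itself was measured at 188, 177 and 181 CPM in control replicates 1, 2 and 3 and in mutant replicates 1, 2 and 3 at 88.8, 72.9 and 94.2 CPM. The ranges were apart, and Smad4 fell by 1.09 on the log2 scale (adjusted p = 0.000604, edgeR quasi-likelihood test with Benjamini-Hochberg adjustment). CPM is the count per 1000000 assigned reads after scaling by trimmed means (TMM). Libraries held 14093564 to 21113926 assigned reads, and at these depths a floor of 3 counts equals 0.140 to 0.214 CPM, far under each member's level. The 13 endothelial markers summed to 11576 to 13034 CPM in controls and 12379 to 12717 CPM in mutants. Their 1 call was Robo4, which was higher. Of 92 tested markers of other cell types (11 fibroblast, mural, epithelial, mesothelial, blood and immune lists), edgeR called 0 and DESeq2 2, and 9 had an unadjusted p under 0.05. Such transcripts were present, with alveolar epithelial markers at a sum of 2323 to 4573 CPM in controls and 3094 to 3595 CPM in mutants. Fibroblast markers summed to 2104 to 2775 and 2196 to 3050 CPM. With 3 libraries a group, the lack of edgeR calls does not show that composition was equal. In the lymphatic endothelial list, 1 of 6 tested genes, Lyve1, was higher, and the list's median log2 change was -0.030. The list's sum of 1169 to 1415 CPM in controls did not overlap the 1529 to 1594 CPM of mutants. That sum includes Lyve1, which by itself went from a mean of 713 CPM to 968 CPM, so it does not describe the list as a whole.

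Of the 10 factors, Sox17 alone passed the test, and it was lower in mutants. Its mean was 221 ± 5.48 CPM in controls and 175 ± 5.99 CPM in mutants (SD, n = 3), a 1.26-fold difference. The members' count is thus 1 lower and 0 higher, beside 1.34% lower, 1.93% higher and 3.27% in either direction among all tested genes. At an unadjusted p under 0.05 there were 4 members (Fli1, Sox17, Gata2 and Foxf1), where 14.0% of all tested genes were. The groups did not overlap for 4 members (Fli1, Ets1, Sox17 and Foxf1), where 20.6% of all tested genes did not overlap. By the sign of the log2 fold change, 4 members were higher and 6 lower, with a median of -0.13 against -0.0024 over all tested genes. The median size of the members' log2 change, either way, was 0.23, against 0.14 over all tested genes and 0.12 over the 3484 genes within the members' range of mean level (78.0 to 664 CPM). In bulk RNA, fewer cells of a type and less RNA per cell cannot be told apart.

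**Figure D1:**
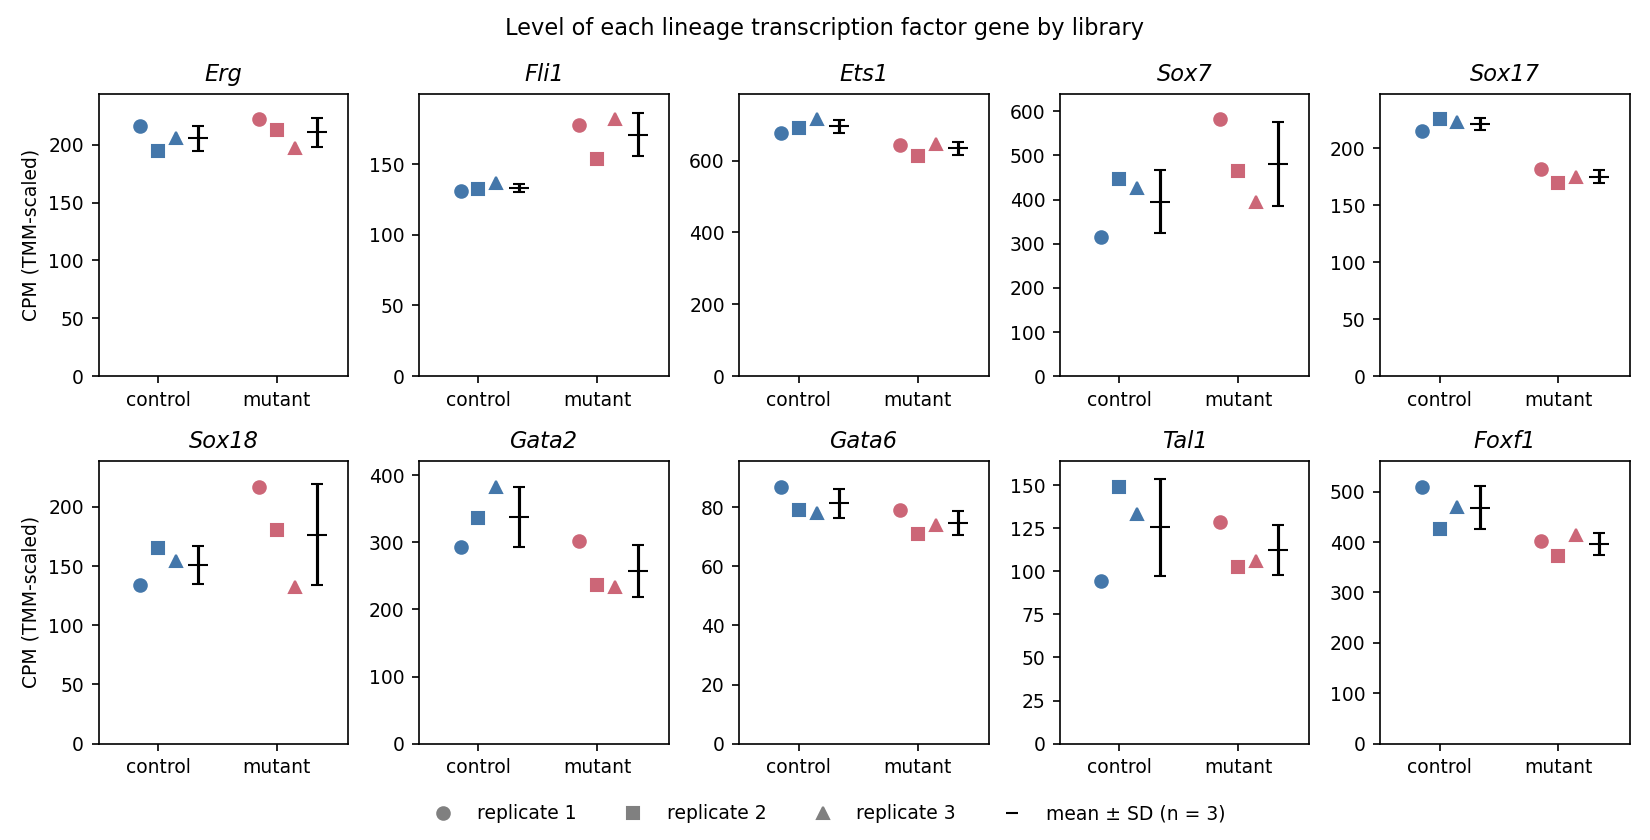
Level of each of the 10 factors in the 3 control and 3 mutant libraries (y axis, CPM; each point is 1 library, the black bar the group mean with its SD, n = 3). Control and mutant points separate for Fli1, Ets1, Sox17 and Foxf1 and overlap for the other 6.

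**Figure D2:**
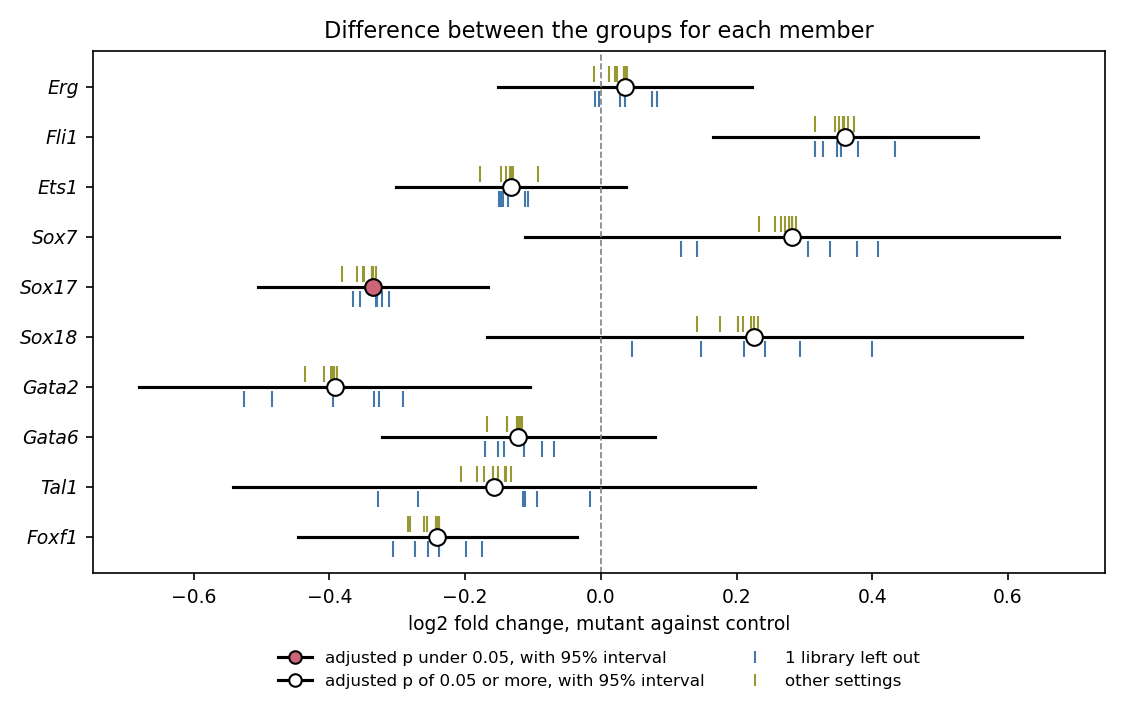
Log2 fold change of each factor, mutant over control, with its 95% interval from the edgeR fit (circles and lines) and the values with 1 library left out or under other settings (ticks). The intervals of Fli1, Sox17, Gata2 and Foxf1 leave out 0, and Sox17 was the 1 member called after adjustment over all genes.

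The SOXF factors differed in the sign of their log2 change. Sox17, which acts in arterial specification and has been tied to pulmonary arterial hypertension, lies on chromosome 1 at 4490931 to 4497354 on the minus strand (GRCm38, GENCODE M21; ENSMUSG00000025902.13). The opposite-strand transcript Gm37587 overlaps its start, and reads from the overlap cannot be told apart where strand is not used in counting. It was measured at 215, 226 and 223 CPM in control replicates 1 to 3 and at 181, 170 and 175 CPM in mutant replicates 1 to 3. Every mutant library was under every control library. Sox17 fell by 0.34 on the log2 scale (SE 0.076, 95% interval -0.51 to -0.17, adjusted p = 0.0426). That was the smallest log2 change called among the 3484 genes of like level. The call did not hold with any 1 of the 6 libraries left out (adjusted p 0.0658, 0.116 and 0.129 without control 1, 2 and 3, and 0.0961, 0.160 and 0.126 without mutant 1, 2 and 3), while the log2 change stayed between -0.38 and -0.31 over all 15 alternatives.

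Sox7, an early regulator of vascular development on chromosome 14, was measured at 314, 446 and 425 CPM in controls and at 582, 465 and 394 CPM in mutants. Control 1 was the lowest library and mutant 1 the highest, and mutant 3 lay within the control range. Sox7 differed by 0.28 on the log2 scale (SE 0.17, 95% interval -0.11 to 0.67, adjusted p = 0.523), and with 1 library left out the value ran from 0.12 (without mutant 1) to 0.41 (without mutant 3). Sox18, required for lymphatic specification, lies on chromosome 2 and was measured at 134, 165 and 154 CPM in controls and at 217, 180 and 132 CPM in mutants. Its mutant libraries spanned the whole control range, with mutants 1 and 2 above it and mutant 3 under it. Sox18 differed by 0.23 (SE 0.17, 95% interval -0.17 to 0.62, adjusted p = 0.617), and with 1 library left out by 0.046 (without mutant 1) to 0.40 (without mutant 3). Sox7 and Sox18 were ordered alike in each group, with control 1 lowest and control 2 highest, and mutant 3 lowest and mutant 1 highest.

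Within a library, the ratio of 2 factors does not depend on the scaling factor. The ratio of Sox7 to Sox17 CPM was 1.46, 1.98 and 1.91 in controls and 3.21, 2.74 and 2.26 in mutants, so that every mutant library was above every control library. The ratio of Sox17 to Sox18 was 1.61, 1.37 and 1.45 in controls and 0.836, 0.940 and 1.32 in mutants, again without overlap. The ratio of Sox7 to Sox18 was 2.35, 2.71 and 2.76 in controls and 2.68, 2.58 and 2.99 in mutants, which overlapped. The mean log2 differences, mutant minus control, were 0.62, -0.54 and 0.078 for the 3 SOXF pairs. Over the 7 pairs within a family that were compared, the first 2 of these reached the smallest p that a two-sided exact permutation test of 3 against 3 libraries allows, 0.1 (Benjamini-Hochberg 0.175), and Sox7 to Sox18 gave 0.6 (0.6). With 3 libraries a group this test cannot reach 0.05.

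In the wider SOX family, 13 genes were tested, 0 were higher and 2 were lower, with a median log2 change of -0.029. The 2 were Sox17 and the SOXD factor Sox13, which went from 206 to 161 CPM (log2 -0.35, adjusted p = 0.0456). The Sox13 call was lost with limma-voom and with any 1 library left out (adjusted p 0.0513 to 0.184). Sox4, the SOXC factor found in many developing tissues, differed by 0.18 on the log2 scale (adjusted p = 0.347). Sox1 and Sox14 were at 0 counts in all 6 libraries.

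**Figure D3:**
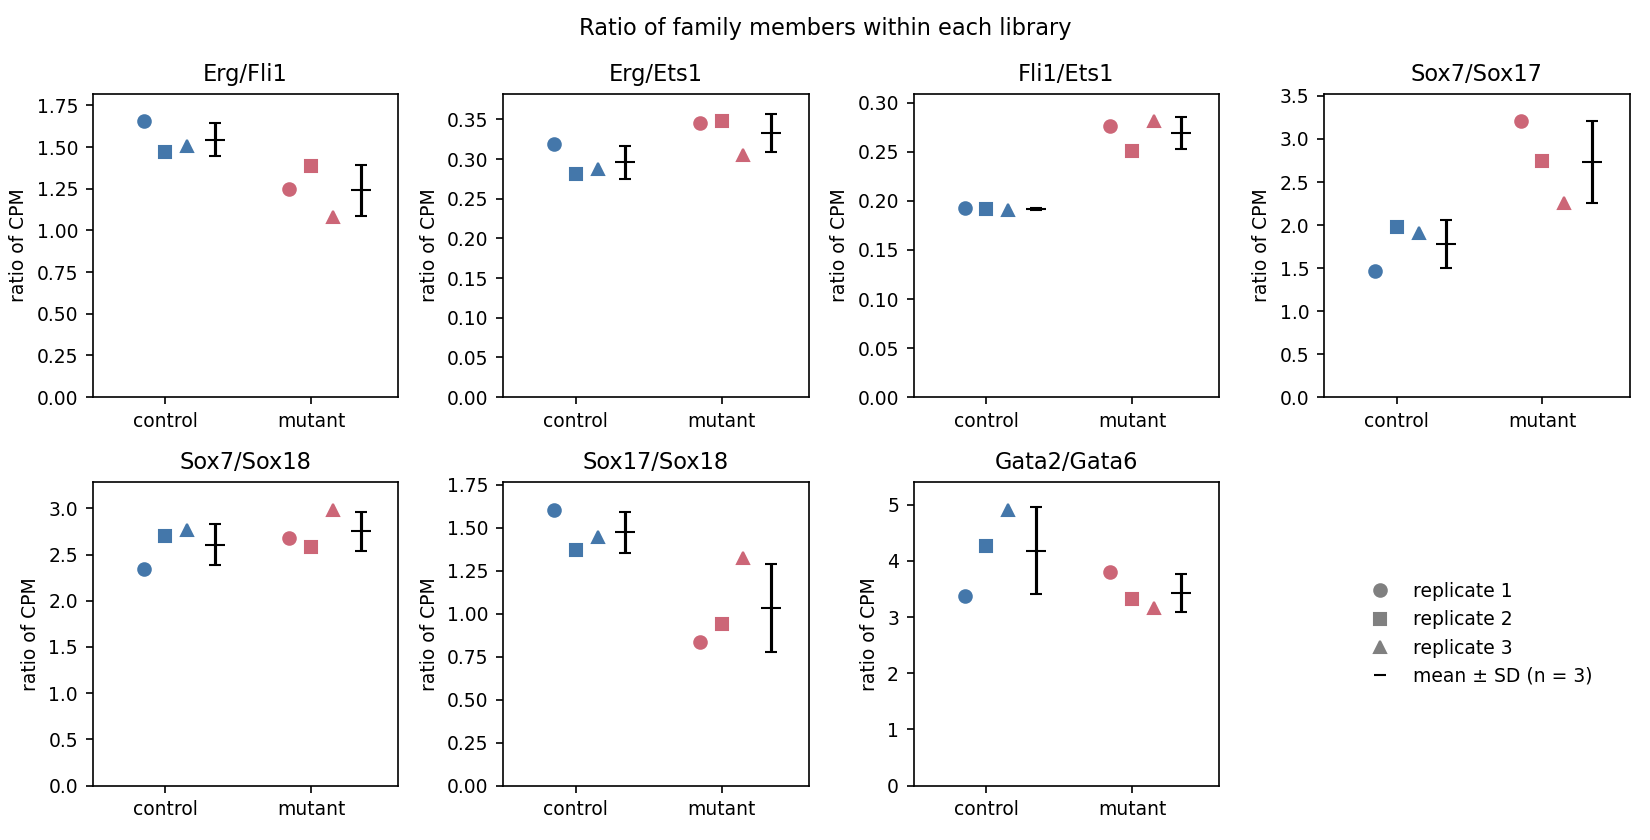
Ratios of 2 factors of the same family in each library (y axis, ratio of CPM from 0; each point is 1 library, the black bar the mean with its SD, n = 3). Control and mutant libraries separate for Erg to Fli1, Fli1 to Ets1, Sox7 to Sox17 and Sox17 to Sox18, and overlap for the other 3 pairs.

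The ETS factors differed in sign as well, and edgeR called 0 of the 3. Fli1, which acts beside Erg in endothelial and blood cells, lies on chromosome 9 at 32422204 to 32542861 on the minus strand. Controls had 131, 132 and 137 CPM and mutants 178, 153 and 182 CPM. All 3 mutant libraries were above all 3 control libraries, and the control libraries were tight, with a CV of 2.24% where genes of like level had a median CV of 7.55%. The log2 difference was 0.36 (SE 0.088, 95% interval 0.17 to 0.56, adjusted p = 0.0581), short of the threshold. Fli1 was called in 4 of 15 alternatives: by DESeq2 (adjusted p = 0.0207, where 5.05% of all tested genes were called), without the low-count filter (0.0443), without mutant replicate 2 (0.0437) and with the GC trend of each library removed (0.0225). Mutant replicate 2 stood apart in base composition. Relative to each gene's mean over all libraries, its genes under 45% GC lay 0.11 log2 units lower (median). Those of 55% GC and over lay 0.086 higher, and Fli1 transcripts hold 44.5% GC. Fli1 is also made by lymphocytes, and the lymphocyte markers summed to 135 to 148 CPM in controls and 153 to 209 CPM in mutants, without overlap. The median log2 change of that list was -0.15, of the other sign, over 8 tested genes, of which edgeR called 0 and DESeq2 1, and their part in the Fli1 values was not tested.

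Ets1 is the next member along chromosome 9, at 32636221 to 32757820 on the plus strand. It begins 93359 bases beyond the highest coordinate of Fli1, which is where the minus-strand gene Fli1 starts. Its level was 678, 691 and 715 CPM in controls and 643, 612 and 646 CPM in mutants. The groups did not overlap, yet the log2 difference of -0.13 (SE 0.076, 95% interval -0.30 to 0.037, adjusted p = 0.485) was within the error of the fit. The ratio of Fli1 to Ets1 was 0.193, 0.191 and 0.191 in controls and 0.276, 0.250 and 0.281 in mutants. Its log2 difference was 0.49, with an SD of 0.0076 among controls and 0.090 among mutants, and the exact permutation p was 0.1 (Benjamini-Hochberg 0.175). The ratio of Erg to Fli1 was 1.66, 1.47 and 1.51 in controls and 1.25, 1.39 and 1.08 in mutants, also without overlap (log2 difference -0.32, exact permutation p = 0.1, Benjamini-Hochberg 0.175). The ratio of Erg to Ets1 overlapped between groups (log2 difference 0.17, exact permutation p = 0.2, Benjamini-Hochberg 0.233).

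Erg, the ETS factor most used to mark endothelial nuclei, lies on chromosome 16 at 95359169 to 95586593 on the minus strand. It was measured at 216.5, 194 and 205 CPM in controls and at 222, 213 and 197 CPM in mutants. The groups overlapped over nearly their whole range. The log2 difference was 0.036 (SE 0.084, 95% interval -0.15 to 0.22, adjusted p = 0.894), and it was the 1 member whose sign varied among the 15 alternatives (positive in 12). RefSeq gives Erg 3 promoter windows on GRCm38.p6, each from 250 bases before to 50 after an annotated start. Shown is the window with the most motif matches, because it holds ETS, SOX and GATA motifs together. It lies at chr16:95459299-95459598 on the minus strand and is read on that strand. Capitals mark matches on either strand to 4 motifs: for SMAD factors the letters searched were CAGAC. For ETS factors they were AGGAAG, the core with its usual flanks. The SOX core was searched as ACAAT. The GATA site was searched as AGATAA.
Erg: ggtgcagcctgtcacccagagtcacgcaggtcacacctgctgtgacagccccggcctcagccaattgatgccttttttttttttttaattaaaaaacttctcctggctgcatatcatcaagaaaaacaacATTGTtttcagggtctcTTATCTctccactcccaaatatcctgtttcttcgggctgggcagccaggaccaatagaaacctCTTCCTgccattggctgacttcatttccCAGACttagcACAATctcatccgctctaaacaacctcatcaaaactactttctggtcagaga
The window holds 1 match to CAGAC, 1 to AGGAAG, 2 to ACAAT and 1 to AGATAA. These letters occur in 49.6%, 35.4%, 31.0% and 11.2% of all 32851 promoter windows of the same length, so each match is a description of the sequence and no more.

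In the ETS family as a whole, 23 genes were tested and 0 were called by edgeR, with 6 at an unadjusted p under 0.05 and a median log2 change of 0.077. DESeq2 called 3 of them higher, Fli1, Ets2 and Etv4. Ets2, an ETS factor downstream of Ras signalling, went from 336 to 421 CPM (log2 0.33, adjusted p = 0.0720 by edgeR and 0.0228 by DESeq2). Etv4, a PEA3 factor, went from 10.4 to 16.5 CPM (log2 0.66, adjusted p = 0.0625 by edgeR and 0.0127 by DESeq2). Elk3, an abundant endothelial ETS factor at 504 CPM in controls, differed by 0.12 (adjusted p = 0.611).

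Gata2, which serves endothelial, lymphatic valve and blood progenitor programmes, lies on chromosome 6 at 88193891 to 88207032 on the plus strand. Controls gave 293, 336 and 383 CPM for Gata2 and mutants 301, 236 and 234 CPM. Mutants 2 and 3 were under all controls, and mutant 1 was above control 1. The log2 difference was -0.39 (SE 0.13, 95% interval -0.68 to -0.10, adjusted p = 0.179), the largest of the 10 in size but not called by edgeR or in any of the 15 alternatives. Mast cells and basophils also make Gata2, and their markers summed to 11.8 to 21.3 CPM in controls and 7.91 to 12.4 CPM in mutants. Of these 6 tested markers 0 were called and 2 had an unadjusted p under 0.05 (edgeR). Their median log2 change was -0.44, of the same sign as Gata2, and their part in the Gata2 values was not tested. Of the 2 Gata2 windows in RefSeq, that at chr6:88198414-88198713 on the plus strand is shown because it holds the most SMAD motifs among the 7 windows found for members. Capitals mark CAGAC and the GC-rich SMAD motif GGCGCC on either strand.
Gata2: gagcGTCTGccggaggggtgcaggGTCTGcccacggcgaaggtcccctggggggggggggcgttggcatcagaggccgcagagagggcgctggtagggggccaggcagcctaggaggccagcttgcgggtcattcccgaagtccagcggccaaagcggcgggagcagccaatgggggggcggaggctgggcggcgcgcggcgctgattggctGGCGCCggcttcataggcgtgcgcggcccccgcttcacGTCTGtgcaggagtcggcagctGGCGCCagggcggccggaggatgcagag
It holds 3 matches to CAGAC and 2 to GGCGCC, and GGCGCC occurs in 11.9% of all promoter windows. The window is 73.7% GC.

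Gata6, which is also made in lung epithelium and smooth muscle, was the lowest member per length. It was measured at 87.0, 79.0 and 77.9 CPM in controls and at 79.2, 71.0 and 73.9 CPM in mutants. The 2 groups overlapped by mutant 1 alone, which lay above controls 2 and 3. Gata6 differed by -0.12 on the log2 scale (SE 0.090, 95% interval -0.32 to 0.079, adjusted p = 0.603), and by -0.17 (without mutant 1) to -0.070 (without control 1) with 1 library left out. Alveolar epithelial markers summed to 2323 to 4573 CPM in controls and 3094 to 3595 CPM in mutants. Airway epithelial markers summed to 691 to 837 and 718 to 829 CPM, and pericyte and smooth muscle markers to 263 to 395 and 325 to 483 CPM. In each of these lists 0 were called, and their part in the Gata6 values was not tested. The opposite-strand transcript 1010001N08Rik overlaps the first bases of Gata6, and at 49 to 85 counts per library it differed by -0.25 (adjusted p = 0.668). Use of strand in counting is not given in the sources used here, so reads of overlapping genes cannot be told apart. The ratio of Gata2 to Gata6 overlapped between groups, with a log2 difference of -0.27 (exact permutation p = 0.2, Benjamini-Hochberg 0.233). Of the 8 tested GATA factors and cofactors, 0 were called, 2 had an unadjusted p under 0.05, DESeq2 called 0 and the median log2 change was -0.013.

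Tal1, the bHLH factor needed for the common origin of blood and endothelium, lies on chromosome 4 at 115056426 to 115071755 on the plus strand. Its level was 94.1, 149 and 133 CPM in controls and 129, 102 and 106 CPM in mutants. Control 1 was the lowest library of all and controls 2 and 3 the highest, so that the mutants lay within the control range. With a control CV of 22.6%, above the 90th percentile of 18.1% among genes of like level, the log2 difference of -0.16 (SE 0.17, 95% interval -0.54 to 0.23) had an adjusted p of 0.735. Leaving out 1 library moved the Tal1 value between -0.33 (without control 1) and -0.016 (without control 2). Erythroid and platelet precursors also make Tal1. Erythroid markers summed to 14.9 to 16.2 CPM in controls and 12.5 to 15.4 CPM in mutants, with Hba-a1, Hba-a2, Hbb-bs and Hbb-bt listed at 0 in all libraries. Alas2 was present at a mean of 10.0 CPM in controls, so the globin zeros do not show that erythroid RNA was absent. Of 3 tested erythroid markers, 2 had an unadjusted p under 0.05 (edgeR), Alas2 lower (log2 -0.50) and Epor higher (log2 0.55). Platelet markers summed to 79.7 to 107 CPM and 71.6 to 96.1 CPM, with 0 called in either list, and their part in the Tal1 values was not tested. The Tal1 window at chr4:115056176-115056475 on the plus strand is shown because it holds a GATA motif beside a SMAD motif, with AGATAA and CAGAC in capitals on either strand.
Tal1: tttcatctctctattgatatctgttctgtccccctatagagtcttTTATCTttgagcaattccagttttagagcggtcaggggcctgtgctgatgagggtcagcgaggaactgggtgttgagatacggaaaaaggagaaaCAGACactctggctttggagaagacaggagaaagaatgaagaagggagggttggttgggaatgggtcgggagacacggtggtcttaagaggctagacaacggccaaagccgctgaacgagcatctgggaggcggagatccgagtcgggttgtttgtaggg
It holds 1 match to each. Among the 14 tested genes of the TAL1 complex, the 1 call was the corepressor Cbfa2t3 (ETO2), which fell from 144 to 105 CPM (log2 -0.45, adjusted p = 0.0205). The call on Cbfa2t3 was lost without control 2 or 3 or without any 1 mutant library (adjusted p 0.0547 to 0.0848), and the list's median log2 change was -0.0066.

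Foxf1 lies on chromosome 8 at 121084386 to 121088144 on the plus strand and was the highest member per length. It was measured at 509.9, 426 and 470 CPM in controls and at 402, 373 and 415 CPM in mutants. Every mutant library was under every control library, by a small margin between control 2 and mutant 3. The log2 difference was -0.24 (SE 0.092, 95% interval -0.45 to -0.036, adjusted p = 0.258), and it was called in 0 of 15 alternatives. Fibroblasts and mural cells also make Foxf1. Fibroblast markers summed to 2104 to 2775 CPM in controls and 2196 to 3050 CPM in mutants, and pericyte and smooth muscle markers to 263 to 395 and 325 to 483 CPM, with 0 of 12 called in either list; their part in the Foxf1 values was not tested.

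Fendrr, a long noncoding RNA transcribed away from Foxf1 on the other strand, starts 1276 bases from it. Fendrr stood at 303, 522 and 428 CPM in controls and at 238, 187 and 284 CPM in mutants, without overlap. The log2 difference of Fendrr was -0.82 (SE 0.22, adjusted p = 0.134), which passed with DESeq2 (0.000656) and without control replicate 1 (0.0237) but in no other alternative. On the other side of Foxf1, Mthfsd differed by 0.14 (adjusted p = 0.668). Of 26 tested forkhead genes 0 were called by edgeR, 5 had an unadjusted p under 0.05 and the median log2 change was -0.088. Foxs1, the forkhead gene with the smallest p by edgeR, went from 0.632 to 1.45 CPM (log2 1.23, adjusted p = 0.0833). It was called in 0 of 15 alternatives. Foxo1, which restrains endothelial growth, went from 145 to 115 CPM (log2 -0.33, adjusted p = 0.0891) and was called with DESeq2 (0.0492) and without control replicate 1 (0.0489).

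Per kilobase of merged exon, the order of the factors in controls was led by Foxf1 at 194 ± 17.5 CPM per kb, above 99.4% of tested genes with a length. Sox7 followed at 119.8 ± 21.5, Sox18 at 93.1 ± 9.70, Ets1 at 82.0 ± 2.22, Gata2 at 62.5 ± 8.33 and Erg at 59.3 ± 3.19 CPM per kb. Sox17 stood at 46.3 ± 1.15, Fli1 at 38.2 ± 0.856, Tal1 at 28.6 ± 6.46 and Gata6 at 12.5 ± 0.761 CPM per kb (SD, n = 3), the last above 69.7% of tested genes. Neighbours in this order whose control libraries overlapped were Sox7 with Sox18, Sox18 with Ets1, and Gata2 with Erg. In mutants the first 4 and the last 2 places were held by the same genes. Between them Erg at 60.8 ± 3.65, Fli1 at 49.0 ± 4.41, Gata2 at 47.6 ± 7.11 and Sox17 at 36.7 ± 1.25 CPM per kb took places 5 to 8. The mutant libraries of Fli1 (44.0 to 52.1) and Gata2 (43.3 to 55.8) overlapped. The order depends on the gene model: over the longest transcript only, 4 of 10 members kept their place in controls, and Ets1 (5080 in place of 8476 bases) moved from 4 to 2. For mutants the order over the longest transcript was not computed. By mean CPM, without length, Sox17 was above Fli1 in controls (221 and 133) and in mutants (175 and 171).

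**Figure D4:**
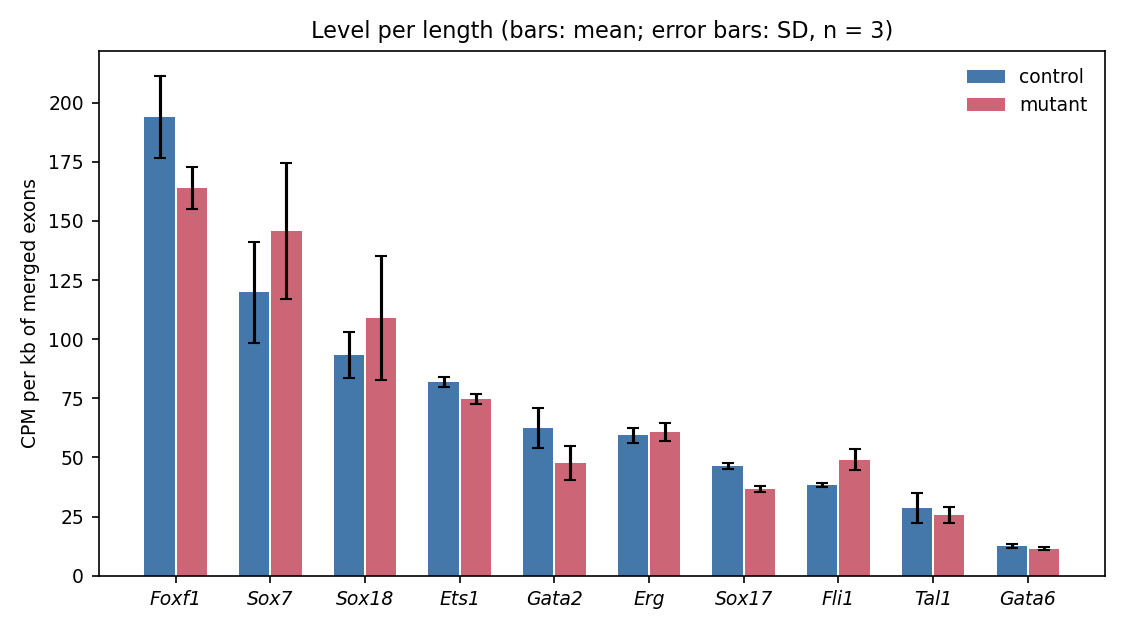
Mean level per length of each factor in controls and mutants (y axis, CPM per kilobase of merged exon; bars, mean; error bars, SD, n = 3). Foxf1 is highest at 194 in controls and Gata6 lowest at 12.5. With these lengths Fli1 and Sox17 exchange order between the groups, while by mean CPM Sox17 is above Fli1 in both.

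The factors also differed in how evenly the libraries of a group carried them. In controls the CV was 22.6% for Tal1, 17.9% for Sox7, 13.3% for Gata2 and 10.4% for Sox18, and 2.24% for Fli1, 2.48% for Sox17 and 2.70% for Ets1. In mutants Sox18 (24.2%), Sox7 (19.8%), Gata2 (14.9%) and Tal1 (12.7%) were again high, where genes of like level had a median of 6.80%. Control 1 was the lowest control for 7 of 10 members, and mutant 1 was the highest mutant for 7 and the lowest for 0. Mutant 2 was the lowest mutant for 6 members and the highest for 0.

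Beyond the members, 28 other endothelial transcription factors were tested, of which 2 were higher and 1 was lower, with a median log2 change of -0.035. Epas1, which encodes the hypoxia-inducible factor HIF-2 alpha, fell from 2299 to 1281 CPM (log2 -0.84, adjusted p = 0.000794). Tcf15, a bHLH factor of capillary endothelium, rose from 6.48 to 13.0 CPM (log2 1.00, adjusted p = 0.0129), and the homeobox factor Meox1 rose from 25.3 to 40.0 CPM (log2 0.66, adjusted p = 0.0381). Epas1 was called in all 15 alternatives. Tcf15 was lost without control 2 or mutant 2 (adjusted p 0.0575 and 0.0760), and Meox1 without mutant 1, 2 or 3 (0.0844, 0.184 and 0.112). Klf4, the shear-induced factor, differed by -0.26 (adjusted p = 0.181). Over the union of the 6 transcription factor lists, 104 of 130 genes were tested, and 2 were higher and 4 lower. Without the members these were 2 and 3 of 94.

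Genes that earlier work ties to the factors moved in both directions. Of 19 tested ERG and FLI1 targets, 3 were higher and 1 was lower, with a median log2 change of 0.067. Apln, the apelin ligand of sprouting endothelium, rose from 212 to 687 CPM (log2 1.70, adjusted p = 5.35e-05). Frzb, a secreted WNT antagonist, rose from 0.664 to 4.35 CPM (log2 2.78, adjusted p = 0.00378). Both were called in all 15 alternatives. Robo4, an endothelial guidance receptor, rose from 302 to 407 CPM (log2 0.43, adjusted p = 0.0263), and Tek, the angiopoietin receptor TIE2, fell from 765 to 542 CPM (log2 -0.50, adjusted p = 0.0128). Robo4 was lost on the pan-endothelial scale and without control 1 or 3 or mutant 1 or 2 (adjusted p 0.0697 to 0.127), and Tek without control 3 or mutant 2 (0.0540 and 0.0760). Robo4 is among the 10 genes that make up the pan-endothelial scale, so that setting is not an independent check of it.

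Of 14 tested SOXF targets, 2 were higher and 4 lower, with a median log2 change of -0.094. Gja4, the arterial connexin 37, fell from 149 to 79.1 CPM (log2 -0.91, adjusted p = 0.000651), a call kept in all 15 alternatives. Flt1, the VEGF receptor that limits ligand, fell from 590 to 448 CPM (log2 -0.40, adjusted p = 0.0337), and Robo4 and Tek are on this list as well. The remaining calls were named after their values were seen: Efnb2, the arterial ephrin, at 680 and 498 CPM (log2 -0.45, adjusted p = 0.0471), and the chemokine receptor Cxcr4 at 101 and 166 CPM (log2 0.73, adjusted p = 0.0473). Of these, Flt1 was lost without control 2 or 3 or any 1 mutant library (0.0742 to 0.162), Efnb2 without control 2 or 3 or mutant 2 or 3 (0.113 to 0.204), and Cxcr4 without control 1, 2 or 3 or mutant 1 or 2 (0.0558 to 0.130). On the pan-endothelial scale Efnb2 and Cxcr4 were lost as well (0.0508 and 0.0719). With the length trend of each library removed, Flt1, Efnb2 and Cxcr4 were lost (0.0763, 0.0582 and 0.118), and Cxcr4 was also lost with limma-voom (0.0502).

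Of 16 tested GATA2 and TAL1 targets, 0 were higher and 2 lower (Tek and Cbfa2t3), with a median log2 change of -0.0069. Of 14 tested FOXF1 targets, 1 was higher and 4 were lower, with a median of -0.079. Those lower were Tek, Flt1, Sox17 and Tmem100, a membrane protein downstream of BMP9 and ALK1, which went from 354 to 185 CPM (log2 -0.93, adjusted p = 0.0280). Sox17 is itself a member. Without it, 1 was higher and 3 were lower of 13, with a median of 0.0097. The gene that was higher was Lyve1, the hyaluronan receptor of lymphatic endothelium, which went from 713 to 968 CPM (log2 0.44, adjusted p = 0.0166). The Tmem100 call was lost without control 1 or 3 or mutant 1 or 2 (adjusted p 0.0643 to 0.159), and the Lyve1 call without control 2 or mutant 1 or 2 (0.0622 to 0.0904). These lists share genes, so their counts are not independent of each other.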

How the data were processed

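Polyadenylated RNA of CD31-selected lung cells was sequenced in 6 libraries (TruSeq RNA v2, per the labels' protocols), 3 per group by the sample titles. The deposited values are raw read counts per gene symbol, not normalized. The build is mm10, and DESeq2 is named without a role, per the submitters' processing notes; for aligner, counter, annotation and strand setting: not given in the sources used here. Reads with no feature (53.9% to 58.2% of each total) and ambiguous reads (0.288% to 0.366%) were left out. The labels describe independent biological samples. Replicates of a group differed by more than sampling noise (chi-square per degree of freedom at least 12.3).

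Counts were tested in R 4.3.3 with edgeR 4.0.16: filterByExpr, TMM factors, robust quasi-likelihood fits of mutant against control with no covariate, two-sided, with Benjamini-Hochberg adjustment over 14934 genes and calls at an adjusted p under 0.05. The SE is the log2 change divided by the square root of F, and 95% intervals use the fit's degrees of freedom. Alternatives were DESeq2 1.42.0, limma-voom 3.58.1, DESeq2, upper-quartile or pan-endothelial scaling (10 genes), no filter, the replicate number as a block, and leaving out each library. Removing each library's GC or length trend was chosen after seeing the data. The scripts were tested on simulated data. Genes were picked for naming by a rule. It took the members, Smad4, neighbouring genes and up to 4 called genes of each list with the smallest p. Where fewer than 2 of a list were called, it took the first 2. It also took the 3 most abundant genes of each family and the 2 most abundant markers. Not all genes so picked are named in the text. Left out were Gata1, Zfpm1, Ssbp2, Tcf4, Ldb1, Tcf12, Foxp1 and most of the markers picked. Members and lists were chosen with earlier results of these data known. Coordinates, lengths and GC content are from GENCODE M21 on GRCm38, promoter windows from RefSeq.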

Additional observations from a re-analysis of the deposited data

How the results depend on the processing

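Of the 10 members, 1 was called by edgeR, 2 by DESeq2, 2 without the low-count filter and 2 with the GC trend removed, Fli1 joining Sox17 each time. The other scalings, limma-voom and the length trend gave 1, and leaving out 1 library gave 0 to 1. The fit with the replicate number as a block called 0 members (Sox17 adjusted p = 0.108) and 466 of all genes, and it also lost Sox13, Flt1, Efnb2 and Cxcr4 (0.0939, 0.0640, 0.0745 and 0.133). Deviations from the group mean correlated at -0.0096, 0.019 and 0.16 between same-numbered libraries and at -0.15 to 0.12 between differently numbered ones. Not every library correlated best with its own number. With 3 libraries a group, these few values cannot decide whether the numbers pair the samples. DESeq2 called 754 of all genes in place of 488, and leaving out 1 library gave 211 (without mutant 2) to 428. No log2 change that was called changed sign among the 85 genes picked for naming, not all of which are named in the text. Of the members, 9 of 10 kept their sign in all 15 alternatives and Erg in 12. Over the longest transcript, 4 of 10 places in the order of levels per length in controls were kept. With upper-quartile factors 10 were kept, but a scaling factor acts alike on all genes of a library and could hardly change the order. The GC and length alternatives were chosen after seeing the data. Depth of 14093564 to 21113926 assigned reads does not limit the members, whose counts lie far above the floor of 3; with 3 libraries a group, the exact permutation tests of ratios cannot give less than 0.1. Why calls moved was not tested beyond these fits.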
